A study of Homo sapiens with 4 samples.

Results

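The proteasome is the barrel-shaped protease that degrades proteins tagged with ubiquitin in the cytosol and nucleus. Its 20S core is a stack of alpha and beta rings with the proteolytic sites on beta subunits inside the barrel, and the 19S regulatory particle at its ends recognises, unfolds and feeds in the substrate. In blood cells, interferon-induced catalytic subunits can replace the constitutive ones to form the immunoproteasome, which is known for making peptides for MHC class I, and proteasome inhibitors are used against some blood cancers.

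Proteasome genes were taken as the rows whose Ensembl identifier carried a protein-coding GENCODE symbol that starts with PSM, a letter from A to G and a digit. The annotation holds 50 such genes, and 48 of them were among the 17656 genes of the deposited table. PSMA8 and PSMB11, the alpha subunit of the testis and the catalytic subunit of the thymus, were not analysed here. All 48 genes passed the filter of at least 1 TPM in at least 2 libraries, which 14582 genes passed in all. They comprised 14 subunits of the standard 20S core, 3 immunoproteasome subunits, 17 subunits of the 19S particle, 5 other activators and inhibitors and 7 assembly chaperones. The remaining 2, PSMC3IP and PSME3IP1, are named after a subunit they bind but are no part of the particle. TPM, a scale on which each library sums to the same total, divides reads by transcript length and by that total, so that levels can be set side by side between genes.

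Total RNA of U937 cells, an established human line of monocytic leukemia, was sequenced in 4 libraries. The NC group of 2 libraries carries no treatment according to its labels, and the sh-ZNF217 group of 2 libraries is labelled as a ZNF217 knockdown, ZNF217 being a zinc finger transcription factor. The study's methods describe both short hairpin knockdown and CRISPR knockout lines. Its methods on the RNA sequencing name ZNF217 knockdown samples, its results text speaks of a knockout, and the labels name a hairpin. Which hairpin was used, and whether the libraries came from separate cultures, is not given in the sources used here, so p-values measure how far these samples spread, and that spread may be technical.

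ZNF217 itself was at 36.1 and 36.7 TPM in the NC libraries and at 35.8 and 34.97 TPM in the sh-ZNF217-labelled libraries (log2 fold change -0.04, SE 0.071, limma adjusted p = 0.74). Its mRNA was therefore not measurably lower, and every comparison below is between the sh-ZNF217-labelled libraries and the NC libraries. Myeloid markers were present as the line's label implies, with 11 of 12 past the filter and LYZ, SPI1 and CD33 among them, while MPO was below 1 TPM in every library. The summed level of the 12 myeloid markers was 4646 and 4701 TPM in NC and 7303 and 7213 TPM in the sh-ZNF217-labelled libraries. LYZ made up most of each sum, at 3270 and 3256 TPM in NC and 5511 and 5328 TPM in the sh-ZNF217-labelled libraries. By adjusted p below 0.05 (limma), 8 of the 11 were higher, beside 9.77% of all genes tested, and CD33, SPI1 and CSF3R were not. Markers of other lineages were few, with 2 of 8 T and NK, 3 of 5 B, 1 of 8 erythroid or megakaryocytic and 0 of 9 epithelial or fibroblast markers in the table. The T and NK sum of 69.1 to 110 TPM was almost all NKG7, and the others reached at most 10.7 TPM. Mitochondrially encoded genes took 9.98% and 10.8% of all TPM in NC and 12.4% and 12.7% in the sh-ZNF217-labelled libraries. The part that these differences play in the proteasome values was not tested, and in bulk RNA fewer cells of a kind and less RNA per cell cannot be told apart.

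Across the 48 genes the differences were small, mostly downward and rarely significant. In 37 of 48 genes (77.1%) the log2 fold change was negative, against 47.5% of all genes tested, and its median was -0.09, against 0.02 over all genes tested. By the rule that asks for a log2 fold change beyond 0.5 in either direction with an adjusted p under 0.05 (limma on log2(TPM + 1), adjusted over all genes), PSMC1 was called lower and no other gene was called. This was 1 of 48 genes (2.08%), and the same rule called 8.72% of all genes tested, 2.46% lower and 6.26% higher. With an adjusted p below 0.05 alone, 3 proteasome genes were lower (PSMC1, PSMG3 and PSMB10) and 0 were higher, which made 6.25% of the genes against a background of 16.9%, of which 7.11% were lower and 9.77% higher. At an unadjusted p below 0.05, 14 were lower and 0 higher, beside 15.5% and 18.9% of all genes tested.

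The spread between libraries of a group was small for these genes, whose mean levels had a median of 175 TPM. The values over all genes tested that follow were not matched for level. Between the libraries of a group, the median absolute log2 difference over the 48 genes was 0.07 in NC and 0.08 in the sh-ZNF217-labelled libraries, against 0.12 and 0.13 over all genes tested. The 95% interval of the log2 fold change lay wholly between -0.5 and 0.5 for 40 of 48 genes (83.3%), as it did for 40.7% of all genes tested. Both libraries labelled sh-ZNF217 were below both NC libraries in 26 genes (54.2%; 28.6% of all genes tested) and above both in 2 genes (4.17%; 33.5% of all genes tested). The other 20 genes had overlapping groups.

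**Figure D1:**
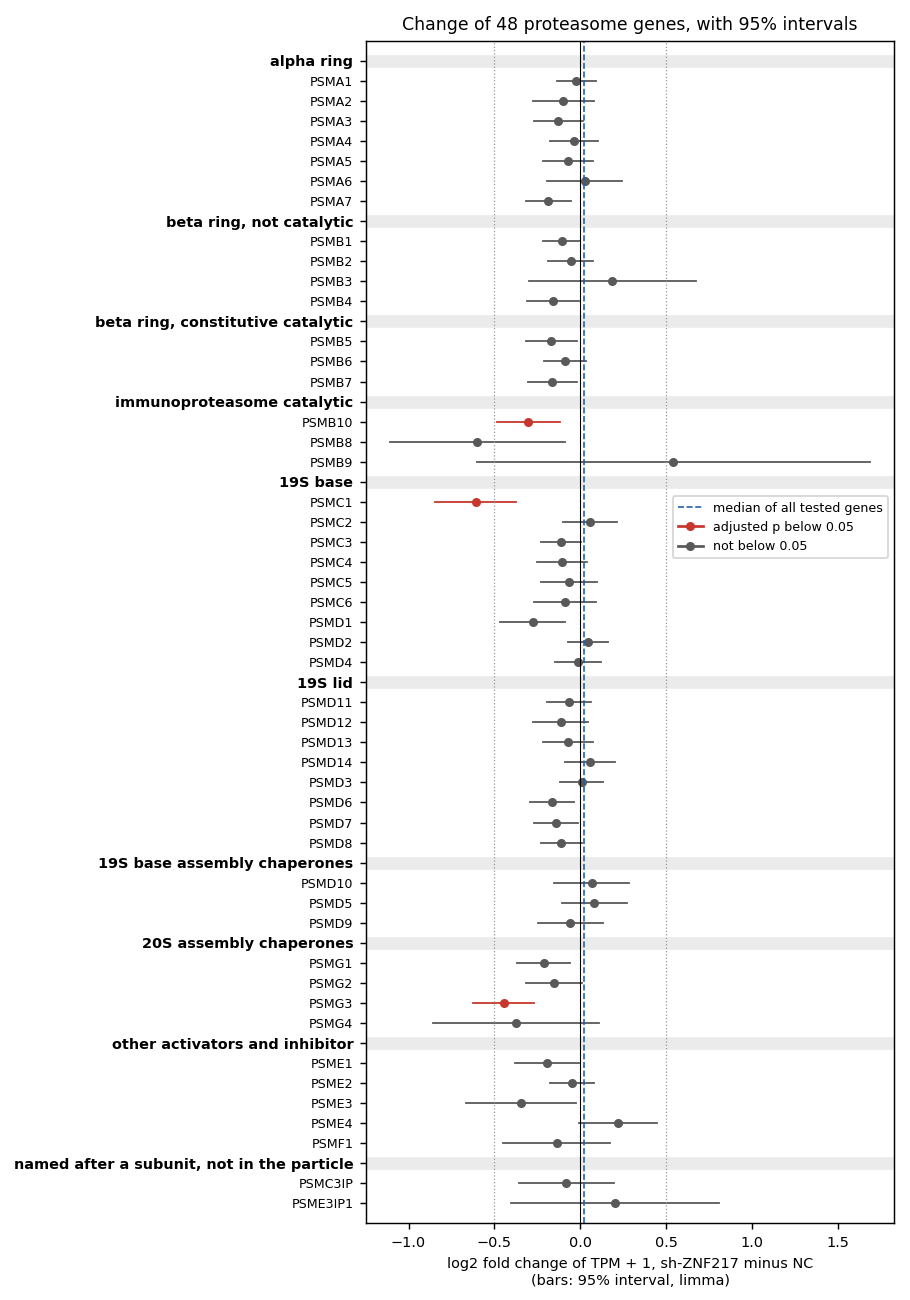
Log2 fold change of each of the 48 proteasome genes (x axis, on the log2(TPM + 1) scale; positive means higher in the 2 libraries labelled sh-ZNF217 than in the 2 NC libraries), grouped by part of the particle, with bars for the 95% interval from limma. Points crowd just left of 0, dotted lines mark -0.5 and 0.5, and the 3 genes in red (PSMB10, PSMC1 and PSMG3) had an adjusted p below 0.05.

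In the standard 20S core, the subunits of both rings differed little between the groups. The 14 genes had a median log2 fold change of -0.09, ranging from -0.19 to 0.19, with 12 negative and 2 positive. By limma 0 of them had an adjusted p below 0.05. Over all genes tested, 47.5% were negative and 16.9% had an adjusted p below 0.05. Among the 7 alpha subunits, which form the outer rings and gate the channel, PSMA4 had the highest mean over the 4 libraries, at 452 and 446 TPM in NC and 456 and 420 TPM in the sh-ZNF217-labelled libraries, and its groups overlapped. The lowest fold change of the alpha ring was that of PSMA7, at 459 and 445 TPM in NC and 409 and 386 TPM in the sh-ZNF217-labelled libraries. Its groups did not overlap, and the difference missed the adjusted threshold (log2 fold change -0.19, SE 0.052, limma adjusted p = 0.065). PSMA6 was at 309 and 362 TPM in NC and at 352 and 329 TPM in the sh-ZNF217-labelled libraries, so that both values of the second group lay between those of the first (log2 fold change 0.03, adjusted p = 0.865). PSMA5 stood apart from its ring by level, with a mean of 77.3 TPM over the 4 libraries beside a median of 338 TPM over the 7 alpha subunits.

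PSMB4, a structural beta subunit, had the highest level of all 48 genes. It was at 719.7 and 672 TPM in NC and at 599.8 and 645 TPM in the sh-ZNF217-labelled libraries, which put both of the latter below both of the former (log2 fold change -0.16, adjusted p = 0.128). PSMB3, also structural, was at 242 and 158 TPM in NC and at 217 and 229 TPM in the sh-ZNF217-labelled libraries. The second NC library was the low one, and the log2 fold change of 0.19 had an interval from -0.30 to 0.67 (adjusted p = 0.547). Without NC replicate 1 it passed the adjusted p but not the fold minimum (log2 fold change 0.49, limma adjusted p = 0.0161), and without NC replicate 2 its sign turned (-0.12).

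The 3 constitutive catalytic subunits lay slightly lower in the sh-ZNF217-labelled libraries, without overlap between the groups. The groups lay apart in that direction for 28.6% of all genes tested, and in the other for 33.5%. PSMB5, which carries the chymotrypsin-like site, was at 208 and 193 TPM in NC and at 176 and 179.8 TPM in the sh-ZNF217-labelled libraries (log2 fold change -0.17, SE 0.059, limma adjusted p = 0.109). PSMB6, the caspase-like subunit, was at 323 and 322 TPM and at 298 and 309 TPM (log2 fold change -0.09, adjusted p = 0.259). PSMB7, the trypsin-like subunit, was at 402 and 371 TPM and at 348 and 342 TPM (log2 fold change -0.16, adjusted p = 0.11). None of the 3 passed the adjusted threshold, and their intervals reached no lower than -0.32 for PSMB5, -0.21 for PSMB6 and -0.30 for PSMB7.

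**Figure D2:**
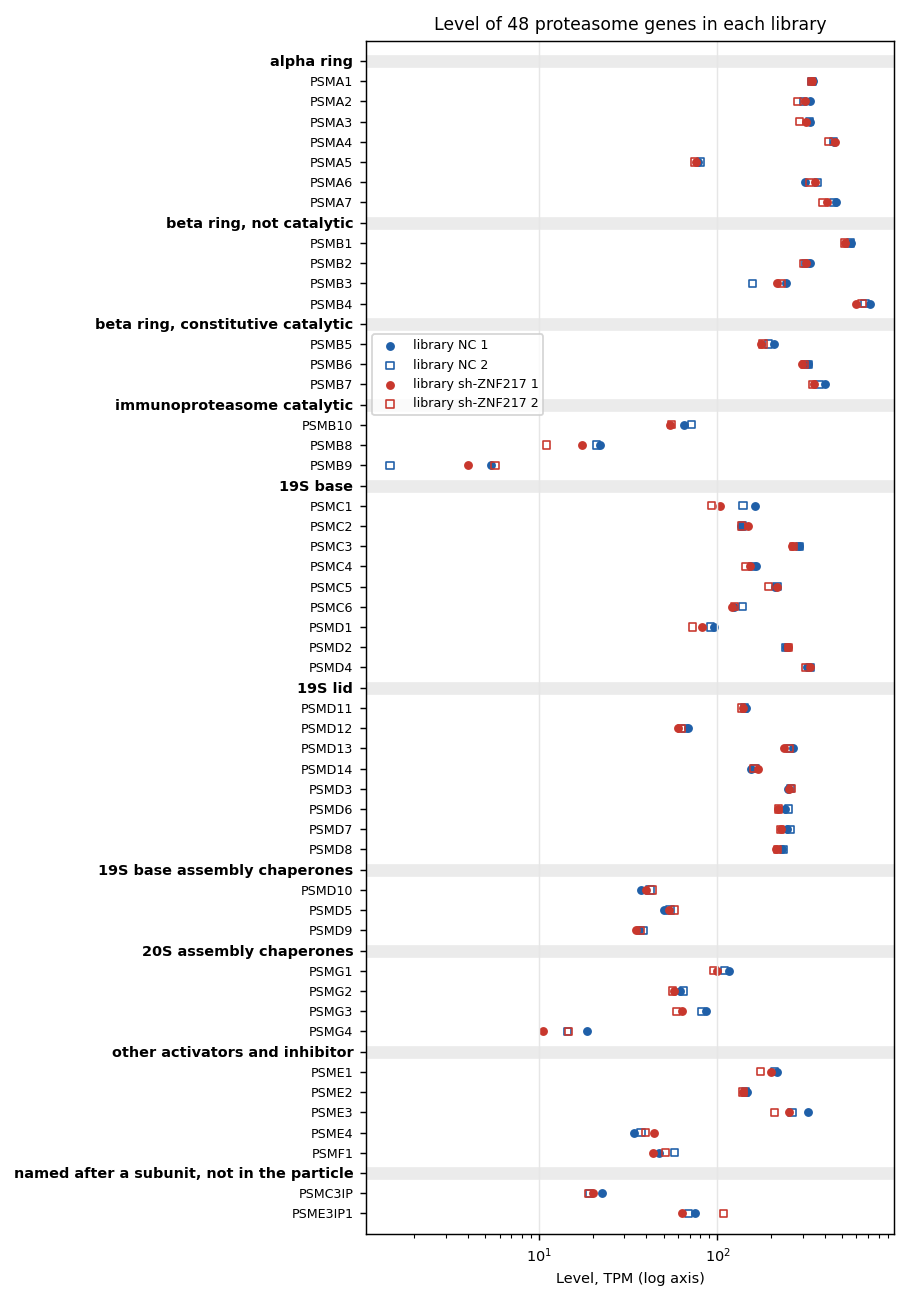
Level of each of the 48 proteasome genes in each library (x axis: TPM, log scale; circles, replicate 1; squares, replicate 2; blue, NC; red, labelled sh-ZNF217). Levels run from about 4 TPM (mean of PSMB9) to 659 TPM (mean of PSMB4), and in most genes the 4 libraries lie close together compared with the gaps between genes.

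The immunoproteasome subunits were far less abundant than their constitutive counterparts, and 1 of the 3 passed the adjusted threshold, beside the 16.9% of all genes tested. PSMB10, which replaces PSMB7, was at 64.5 and 71.1 TPM in NC and at 54.4 and 55.1 TPM in the sh-ZNF217-labelled libraries. Both of the latter were below both of the former, and PSMB10 fell by adjusted p alone (log2 fold change -0.30, SE 0.073, limma adjusted p = 0.0458). It did not pass in any of the fits that left out a library, with adjusted p from 0.0564 to 0.157. Another annotated gene on the same strand (ENSG00000261884), at 2.97 to 4.56 TPM, shares 640 exonic bases with PSMB10, so that reads could be split between them.

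PSMB8, which replaces PSMB5, was at 21.8 and 21.0 TPM in NC and at 17.3 and 11.0 TPM in the sh-ZNF217-labelled libraries. The groups did not overlap, but the sh-ZNF217-labelled libraries differed more from each other than sh-ZNF217 replicate 1 did from NC. Its log2 fold change of -0.60 (SE 0.204) had an interval from -1.11 to -0.09 and missed the threshold (limma adjusted p = 0.102). Without sh-ZNF217 replicate 1 the gene was called lower (log2 fold change -0.91, adjusted p = 0.0438), and without sh-ZNF217 replicate 2 the value was -0.29.

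PSMB9, which replaces PSMB6, was at 5.36 and 1.46 TPM in NC and at 3.98 and 5.66 TPM in the sh-ZNF217-labelled libraries. The second NC library was low and the other 3 were at 3.98 TPM or above, so the groups overlapped and the interval of the log2 fold change, 0.54, ran from -0.60 to 1.69 (adjusted p = 0.458). Without NC replicate 2 its sign turned (-0.14). PSMB8 and PSMB9 lie next to each other on opposite strands of chromosome 6 in the MHC class II region, and 139 of their exonic bases overlap. Whether the counting used strand is not given in the sources used here, so reads over those bases cannot be assigned.

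Set against the subunit each one replaces, the immunoproteasome share was small in every library. PSMB8 stood at 10.5% and 10.9% of the PSMB5 level in NC and at 9.82% and 6.10% in the sh-ZNF217-labelled libraries, with no overlap between the groups (log2 difference -0.47, exact two-sided permutation p = 0.333). Leaving out sh-ZNF217 replicate 2 made the difference -0.12, and leaving out sh-ZNF217 replicate 1 made it -0.81. With 2 libraries against 2, 0.333 is the smallest p this test can give, so it cannot reach 0.05. The PSMB9 level was 1.66% and 0.453% of PSMB6 in NC and 1.34% and 1.83% in the sh-ZNF217-labelled libraries, and the groups overlapped. For PSMB10 against PSMB7 the ratios were 16.1% and 19.2% in NC and 15.6% and 16.1% in the sh-ZNF217-labelled libraries, again with overlap. A ratio within a library does not depend on how that library was scaled. Averaged over the 3 pairs, the log2 ratio differed by 0.08, and taken from the summed levels of the 3 subunits on each side it differed by -0.19, so its direction depended on the weight given to PSMB9. It also turned on an NC library, with an average of 0.34 without NC replicate 1 and of -0.18 without NC replicate 2.

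**Figure D3:**
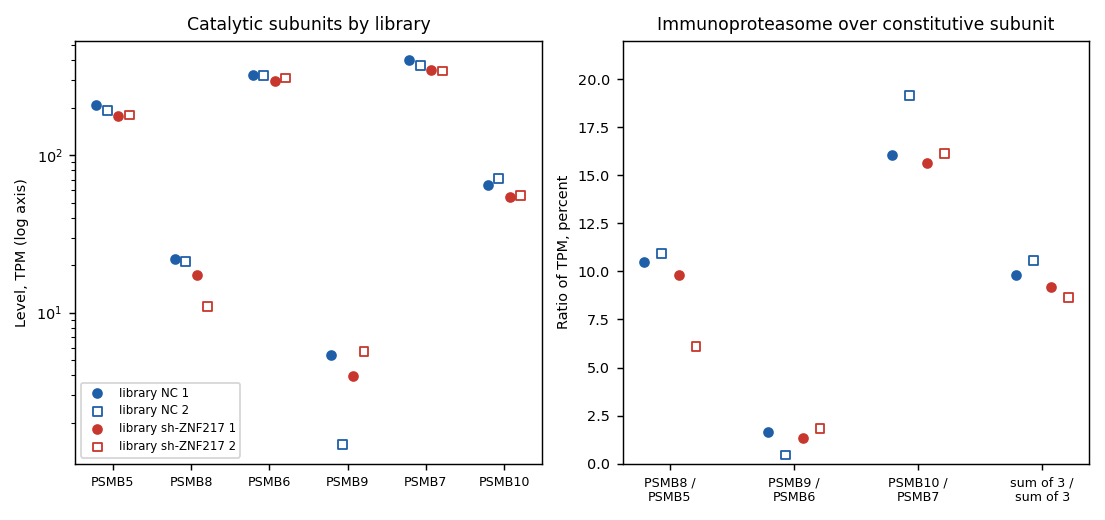
Left, level of each catalytic subunit by library (TPM, log axis), with each constitutive subunit next to its immunoproteasome counterpart; right, level of the immunoproteasome subunit as a percent of its counterpart (axis from 0). Circles are replicate 1, squares replicate 2, blue NC and red labelled sh-ZNF217. The immunoproteasome subunits sit well below their counterparts in all 4 libraries, PSMB8 is lowest in sh-ZNF217 replicate 2, and PSMB9 is lowest in NC replicate 2.

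The letters of the interferon-stimulated response element, the site through which interferon induces immunoproteasome genes, were looked for in the RefSeq promoters (GRCh38.p14, 250 bases before to 50 after a gene's start). Of the 48 genes 42 matched an entry of the RefSeq table, and PSMA7, PSMB1, PSMB6, PSMB7, PSMD4 and PSMG3 did not. GAAA, any 2 bases and GAAA again, on either strand, was found in the windows of 7 genes (16.7% of 42), against 4.38% of 27305 genes with a window. Each match is printed on the strand of the gene, with 10 bases on each side, because 5 of the 7 hold the same 10 letters, GAAAGCGAAA or its reverse complement. Capitals mark the match.
PSMB10: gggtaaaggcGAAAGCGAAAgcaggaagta
PSME2: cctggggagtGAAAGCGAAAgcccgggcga
PSMG4: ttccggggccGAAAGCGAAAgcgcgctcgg
PSMB8: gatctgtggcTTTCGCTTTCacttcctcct
PSME1: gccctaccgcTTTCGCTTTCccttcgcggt
PSMB4: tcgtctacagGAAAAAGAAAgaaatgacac
PSMA4: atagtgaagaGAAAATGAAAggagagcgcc

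The printed stretches lie at chr16:67936852-67936881 (PSMB10, minus strand), chr14:24146619-24146648 (PSME2, minus), chr6:3258904-3258933 (PSMG4, plus), chr6:32844032-32844061 (PSMB8, minus), chr14:24136189-24136218 (PSME1, plus), chr1:151399495-151399524 (PSMB4, plus) and chr15:78540155-78540184 (PSMA4, plus). The first base of the match was 21 bases before the start of PSMB10, 28 before that of PSME2, 33 before that of PSMG4 and 4 before that of PSMB8, and it was base 6 of the PSME1 transcript. In PSMB4 and PSMA4 it was 68 and 240 bases before the start. The exact letters GAAAGCGAAA were in 5 of 42 windows (11.9%) and in 34 of 27305 (0.125%), a share given as a description, since these letters were picked from the matches. No match was found in the PSMB9 window, which says only that these letters are not there. The 5 genes with the same letters did not share a level, and their log2 fold changes were -0.30 (PSMB10), -0.05 (PSME2), -0.38 (PSMG4), -0.60 (PSMB8) and -0.19 (PSME1), of which only that of PSMB10 had an adjusted p below 0.05.

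In the 19S regulatory particle, 1 of 17 subunits was called, and it was lower. Of all genes tested, 2.46% were called lower and 6.26% higher. The median log2 fold change was -0.09, with 13 negative and 4 positive values, beside 47.5% negative over all genes tested. Of the 17 intervals 16 lay between -0.5 and 0.5, as did 40.7% of those of all genes tested. PSMC1, an ATPase of the ring that unfolds substrates, was at 161 and 139 TPM in NC and at 104 and 92.3 TPM in the sh-ZNF217-labelled libraries. Both of the latter were well below both of the former, and PSMC1 fell to 0.652 of the NC mean (log2 fold change -0.61, SE 0.096, limma adjusted p = 0.0157). The call was lost without sh-ZNF217 replicate 1 (adjusted p = 0.0536), without sh-ZNF217 replicate 2 (adjusted p = 0.0725) and without the trend and robust options of limma (adjusted p = 0.0741).

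PSMC1 lies at chr14:90256527-90275429 on the plus strand in GENCODE 44, and 4667 of its exonic bases overlap NRDE2 on the opposite strand. NRDE2 was at 4.02 to 4.79 TPM (log2 fold change -0.07, adjusted p = 0.799). The annotation lists 13 pseudogene copies of PSMC1, with which its reads could be shared, and the most abundant copy in the table, PSMC1P1, was at 3.91 and 5.38 TPM in NC and at 5.20 and 5.13 TPM in the sh-ZNF217-labelled libraries. As deposited, NRDE2 and PSMC1P1 were low beside PSMC1. Whether strand was used and how shared reads were assigned is not given, so such reads cannot be placed. Their part in the PSMC1 difference was not tested. The 100 bases before its RefSeq start (GRCh38.p14, chr14:90256453-90256552, plus strand), of which the last 26 lie in an exon of GENCODE 44, are shown because PSMC1 had the largest fall of the genes past the adjusted p, with capitals at each match to CGGAAG, the core of sites for ETS factors, on either strand.
PSMC1: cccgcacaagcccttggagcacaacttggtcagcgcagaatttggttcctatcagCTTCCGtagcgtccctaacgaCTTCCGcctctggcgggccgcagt

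The ETS core was in the windows of 26 of 42 proteasome genes (61.9%), against 22.6% of all 27305 genes with a window, and PSMC1 shared it with PSMC2, PSMC4, PSMC5 and PSMC6. PSMC2, another ATPase of the ring, had the highest fold change of the 19S base, at 135 and 138 TPM in NC and 148 and 136 TPM in the sh-ZNF217-labelled libraries, with overlapping groups (log2 fold change 0.06, adjusted p = 0.581). The log2 fold changes of PSMC3, PSMC4, PSMC5 and PSMC6 ran from -0.11 to -0.07, and 0 of them had an adjusted p below 0.05. In both NC libraries PSMC1 was above PSMC2 and PSMC6, in NC replicate 2 by less than 1 TPM, and in both libraries labelled sh-ZNF217 it was the lowest of the 6 ATPases, which sit in the ring in equal number.

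PSMD1, a large scaffold of the base, was at 95.3 and 91.6 TPM in NC and at 81.5 and 72.6 TPM in the sh-ZNF217-labelled libraries, without overlap (log2 fold change -0.28, limma adjusted p = 0.0608). PSMD2, the other scaffold, was at 242 TPM in both NC libraries and at 249.8 and 249.7 TPM in the sh-ZNF217-labelled libraries. PSMD2 was thus slightly higher in both, yet its interval of -0.07 to 0.16 lay within 0.5 of no difference. PSMD4, a ubiquitin receptor, had the highest level of the particle at 316 and 331 TPM in NC and 329 and 313 TPM in the sh-ZNF217-labelled libraries, and its log2 fold change was -0.01.

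The 8 lid subunits had log2 fold changes from -0.16 to 0.06, and each interval lay within 0.5 of no difference. Such intervals made up 40.7% over all genes tested. PSMD14, the deubiquitinase that removes ubiquitin chains from the substrate, was at 154 and 162 TPM in NC and at 169 and 160.0 TPM in the sh-ZNF217-labelled libraries, and its groups overlapped (adjusted p = 0.546). PSMD6, a structural subunit, had the lowest fold change of the lid, at 240.3 and 251 TPM in NC and 218 and 221 TPM in the sh-ZNF217-labelled libraries, without overlap (log2 fold change -0.16, adjusted p = 0.0848). PSMD3, the lid subunit with the highest mean over the 4 libraries, averaged 254 ± 5.58 TPM in NC and 256 ± 5.57 TPM in the sh-ZNF217-labelled libraries (SD, n = 2 each; log2 fold change 0.01).

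The proportion between the levels of core and regulatory particle did not separate the groups. The mean level of a 19S subunit was 53.9% and 56.6% of that of a standard 20S subunit in NC and 55.4% and 55.6% in the sh-ZNF217-labelled libraries, with overlap between the groups and a log2 difference of 0.01. On the TPM scale a standard 20S subunit averaged 363 and 349 TPM in NC and 338 and 331 TPM in the sh-ZNF217-labelled libraries, and a 19S subunit 196 and 198 TPM and then 187 and 184 TPM.

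Of the other activators, which bind the ends of the core in place of the 19S particle, none was called. PSME1 and PSME2 form the activator that interferon induces together with the immunoproteasome. PSME1 was at 216 and 209 TPM in NC and at 199 and 174 TPM in the sh-ZNF217-labelled libraries, and PSME2 at 145 and 143 TPM and then at 139.9 and 139 TPM. Neither pair of groups overlapped, and neither difference passed the adjusted threshold (adjusted p = 0.136 and 0.56).

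PSME3, the nuclear activator, was the most abundant of the 5, at 322 and 262 TPM in NC and at 251 and 208 TPM in the sh-ZNF217-labelled libraries. Each group spread widely, and its log2 fold change was -0.35 with an interval from -0.67 to -0.02 (limma adjusted p = 0.126). With the replicate number as a block it passed the adjusted p alone (adjusted p = 0.0294), and with the numbers crossed it did not (adjusted p = 0.192). PSME4, which forms the large activator linked to histone degradation, had the highest fold change, at 34.1 and 37.3 TPM in NC and 44.2 and 39.4 TPM in the sh-ZNF217-labelled libraries, without overlap (log2 fold change 0.22, adjusted p = 0.153). PSMF1, an inhibitor of the core in the test tube, was at 43.5 to 57.4 TPM over the 4 libraries and its groups overlapped.

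Among the assembly chaperones, those that build the core had negative values and those that build the base of the 19S particle had values around 0. All 4 chaperones of the 20S core (PSMG1 to PSMG4) had negative log2 fold changes, with a median of -0.29. Of these, 1 passed the adjusted threshold. Of all genes tested, 47.5% were negative, and 7.11% passed that threshold as lower and 9.77% as higher. PSMG3 was at 86.2 and 81.1 TPM in NC and at 63.4 and 58.9 TPM in the sh-ZNF217-labelled libraries. The groups did not overlap, and PSMG3 fell by adjusted p alone, to 0.731 of the NC mean (log2 fold change -0.45, SE 0.071, limma adjusted p = 0.016). Without NC replicate 1, sh-ZNF217 replicate 1 or sh-ZNF217 replicate 2 it no longer passed the adjusted p (0.0515, 0.0559 and 0.0729), nor did it without the trend and robust options (adjusted p = 0.074).

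PSMG4, the partner of PSMG3 in the chaperone pair, was at 18.6 and 14.4 TPM in NC and at 10.5 and 14.6 TPM in the sh-ZNF217-labelled libraries, so the groups overlapped (log2 fold change -0.38, adjusted p = 0.234). PSMG1 and PSMG2 form the other pair. PSMG1 was at 117 and 109 TPM in NC and at 99.0 and 95.5 TPM in the sh-ZNF217-labelled libraries (log2 fold change -0.21, adjusted p = 0.0684). PSMG2 was at 61.4 and 64.5 TPM and at 57.0 and 55.9 TPM (log2 fold change -0.15, adjusted p = 0.159). Both were without overlap, and neither passed.

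PSMG3-AS1, a noncoding RNA on the opposite strand, shares 60 exonic bases with PSMG3. It was at 4.39 and 4.03 TPM in NC and at 4.93 and 6.20 TPM in the sh-ZNF217-labelled libraries (log2 fold change 0.33, adjusted p = 0.258), so its values were low beside those of PSMG3 and their difference had the opposite sign. How reads over the shared bases were assigned is not known.

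The 3 chaperones of the 19S base had log2 fold changes of 0.08 (PSMD5), 0.07 (PSMD10) and -0.06 (PSMD9), with groups that overlapped in each and adjusted p of 0.495, 0.644 and 0.638. PSMD5 had the highest level at 50.4 and 54.2 TPM in NC and 53.4 and 57.6 TPM in the sh-ZNF217-labelled libraries. The summed level of the 20S chaperones was 283 and 269 TPM in NC and 230.0 and 225 TPM in the sh-ZNF217-labelled libraries, and that of the base chaperones was 124 and 134 TPM and then 128 and 138 TPM. The former groups did not overlap (exact two-sided permutation p = 0.333) and the latter did. No test of the difference between the 2 kinds of chaperone was made.

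The genes named after a subunit they bind showed no call. PSME3IP1, which binds PSME3, was at 74.6 and 69.0 TPM in NC and at 63.2 and 108 TPM in the sh-ZNF217-labelled libraries, so that sh-ZNF217 replicate 2 was the high one (adjusted p = 0.607). Without sh-ZNF217 replicate 1 it was called higher (log2 fold change 0.58, adjusted p = 0.0492), and without sh-ZNF217 replicate 2 its sign turned (-0.18). PSMC3IP, a protein of meiotic recombination, was at 18.8 to 22.4 TPM over the 4 libraries and its groups overlapped.

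Summed over the parts of the particle, the sh-ZNF217-labelled libraries were below both NC libraries in each of the 5 parts. The 48 genes together took 0.978% and 0.956% of all TPM in NC and 0.911% and 0.895% in the sh-ZNF217-labelled libraries. Their sum was 9772 and 9550 TPM and then 9098 and 8940 TPM, a change of -6.64% between the group means (exact two-sided permutation p = 0.333). The standard 20S core differed by -6.11% (5082 and 4892 TPM, then 4726 and 4638 TPM) and the 19S particle by -5.76% (3329 and 3364 TPM, then 3178 and 3130 TPM). In both parts the group means differed by more than the libraries of a group did from each other.

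The smaller parts had larger percent differences. The immunoproteasome sum was 91.7 and 93.6 TPM in NC and 75.7 and 71.8 TPM in the sh-ZNF217-labelled libraries (-20.5%), of which PSMB10 made up the most. Activators and inhibitor summed to 765 and 709 TPM and then to 677 and 611 TPM (-12.6%), and the assembly chaperones to 407 and 404 TPM and then to 358 and 362 TPM (-11.1%). TPM is a share of the library, and mitochondrially encoded genes took a larger share in the sh-ZNF217-labelled libraries. With those genes left out, the log2 fold of the 48-gene sum was -0.06 in place of -0.10. That rescaling moved other genes too. The median log2 fold change went from 0.02 to 0.05 over all genes tested and from -0.09 to -0.06 over the 48 genes. Differences between the parts were not tested, since the members were chosen with results of these data known.

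**Figure D4:**
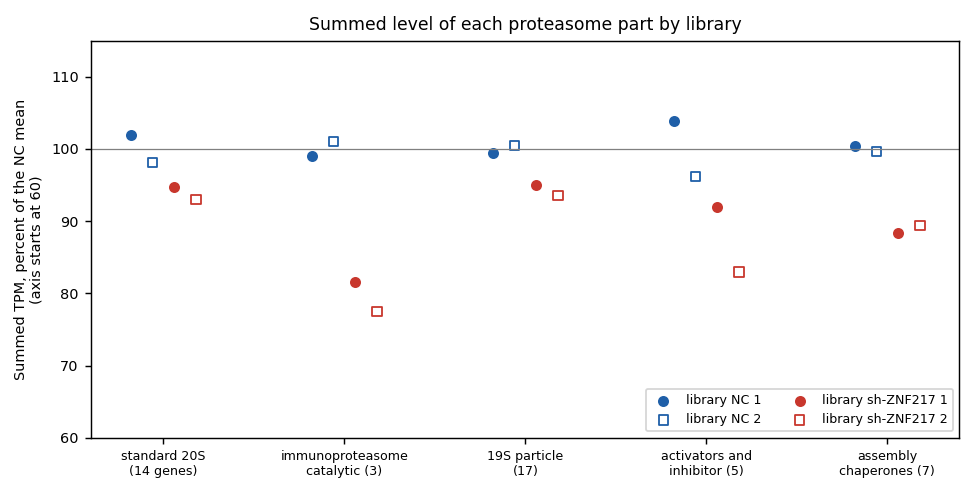
Summed TPM of the genes of each part in each library, as a percent of the mean of the NC libraries (y axis, which starts at 60; circles, replicate 1; squares, replicate 2; blue, NC; red, labelled sh-ZNF217). In each of the 5 parts both red points lie below both blue points, by the most for the immunoproteasome (75.7 and 71.8 TPM against 91.7 and 93.6 TPM).

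Genes around the proteasome were read from 6 lists with 65 genes, of which 63 were tested. By the rule with the fold minimum 0 were lower and 7 higher, beside the 2.46% and 6.26% of all genes tested, and by adjusted p alone 3 were lower and 15 higher, beside 7.11% and 9.77%. Among 13 proteasome proteins with other symbols none was called by the rule with the fold minimum. POMP, the maturation protein that completes the core, was at 212 and 204 TPM in NC and at 207 and 195 TPM in the sh-ZNF217-labelled libraries (log2 fold change -0.05, adjusted p = 0.581), with overlapping groups. By adjusted p alone UCHL5, a deubiquitinase of the 19S particle, fell (log2 fold change -0.31, limma adjusted p = 0.0383), and ZFAND5 and AKIRIN2, which activate the proteasome and help carry it into the nucleus, respectively, rose (0.30 and 0.26, adjusted p = 0.0204 and 0.0479).

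Of the genes for ubiquitin and its activating enzymes, RPS27A, which encodes ubiquitin fused to a ribosomal protein, fell by adjusted p alone. It was at 1358 and 1242 TPM in NC and at 1116 and 1042 TPM in the sh-ZNF217-labelled libraries, without overlap (log2 fold change -0.27, limma adjusted p = 0.0426). Among 11 shuttle factors and VCP partners, which bring substrates to the proteasome, UBQLN4 fell by adjusted p alone (-0.38, adjusted p = 0.0247).

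NFE2L1, the transcription factor that induces proteasome genes when proteasome activity is short, rose by adjusted p alone. It was at 111 and 109.6 TPM in NC and at 130.1 and 129 TPM in the sh-ZNF217-labelled libraries, with no overlap (log2 fold change 0.23, limma adjusted p = 0.0408). Of the other 7 genes on its list, which pair with it, process it or resemble it, MAFF rose past the fold minimum (0.61, adjusted p = 0.0234) and MAFG by adjusted p alone (0.36, adjusted p = 0.0408). The core of the antioxidant response element that these factors bind, TGACNNNGC on either strand, was in the promoter windows of 15 of 42 proteasome genes (35.7%) and of 16.1% of all genes with a window. Of those 15 genes 10 had a negative and 5 a positive log2 fold change.

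The class I peptide loading list was drawn up around the loading of peptides onto MHC class I, those from the immunoproteasome among them. Of 14 tested, 3 rose past the fold minimum and 0 fell, beside 6.26% and 2.46% of all genes tested. HLA-E rose by adjusted p alone (0.40, adjusted p = 0.049). B2M, the light chain of MHC class I, was at 725 and 745 TPM in NC and at 1110 and 1062 TPM in the sh-ZNF217-labelled libraries (log2 fold change 0.56, limma adjusted p = 0.0039). TAPBPL, a peptide editor, and ERAP1, a trimming peptidase, rose by 0.71 and 0.57 (adjusted p = 0.0326 and 0.0198). TAP1, the peptide transporter whose gene lies beside PSMB9, was at 0.856 to 1.74 TPM in the 4 libraries and did not pass (adjusted p = 0.596).

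Of 11 interferon response factors, IRF9 and IFNGR1 rose past the fold minimum (0.74 and 0.55, limma adjusted p = 0.0375 and 0.0151), and 5 in all, these included, rose by adjusted p. Over all genes tested these rules called 6.26% and 9.77% higher. IRF1, which drives immunoproteasome genes, was at 8.40 and 8.57 TPM and at 11.5 and 12.9 TPM, without overlap, and missed the threshold (0.47, adjusted p = 0.0534). The median log2 fold change of this list was 0.40 and that of the class I list 0.20, beside 0.02 for all genes tested. For the 3 immunoproteasome subunits the median of -0.30 was the value of PSMB10, and they ran from -0.60 (PSMB8) to 0.54 (PSMB9).

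**Figure D5:**
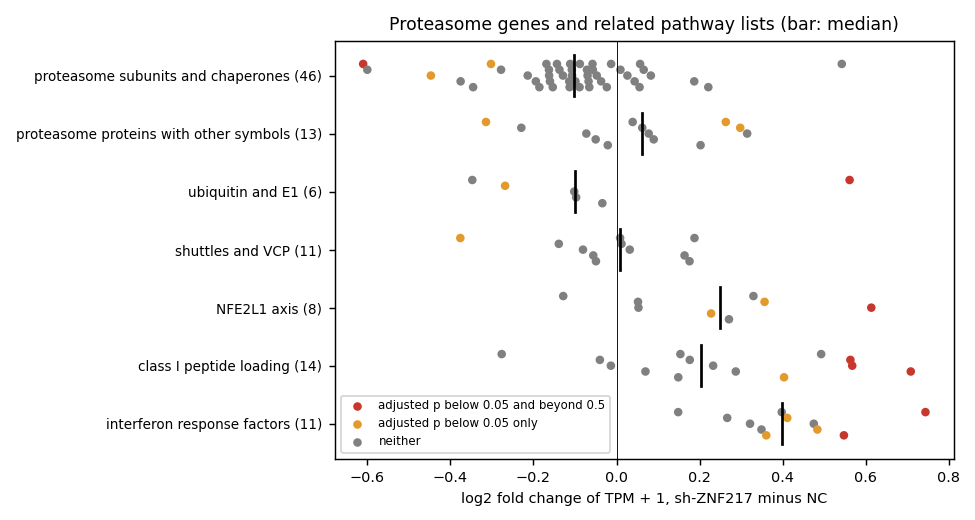
Log2 fold change (x axis, on the log2(TPM + 1) scale; positive means higher in the sh-ZNF217-labelled libraries) of the 46 subunits, chaperones and regulators in the top row and of 6 related gene lists below it, 1 point a gene, with vertical bars for the medians. Red points passed the adjusted p and the fold minimum of 0.5, orange points the adjusted p alone. The proteasome row centres just below 0 with 1 red point on the left, while the red points of the class I and interferon lists all lie on the right.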

How the data were processed

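RNA of U937 cells was extracted with Trizol, and an Illumina TruSeq kit was used for the libraries per the labels. The submitters' processing notes name HISAT2 2.0.5 and hg38 for the alignment. Which quantifier and annotation made the values, whether strand was used, and how deep the libraries were, is not given in the sources used here. FPM is the name that the authors give their measure, and they tested genes with DESeq2. The deposited values were taken as TPM, since each column of the table sums to nearly the same total (998932 to 999282), and TPM keeps no depth, so no counting error could be given. Each column was assigned to a sample from NC or ZNF in its name together with its number. The column names also hold parts that the labels do not explain, and the match rests on there being 2 groups.

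Identifiers were named from GENCODE 44 of the same build, which held 16143 of 17656 identifiers. Values were compared as log2(TPM + 1) for 14582 genes with at least 1 TPM in at least 2 libraries, leaving out 3074. The test was limma 3.58.1 in R 4.3.3 with group as the only term and trended, robust empirical Bayes, with p-values adjusted over all tested genes by Benjamini-Hochberg. The pseudocount shrinks the fold changes of genes at low levels. A gene was called changed when its log2 fold change lay beyond 0.5, the fold minimum of the study, with an adjusted p under 0.05. Sums and ratios of TPM were compared with an exact two-sided permutation test (SciPy 1.17.1). The fit was tested on simulated data. Alternatives were a pseudocount of 0.1, no filter, a mean of at least 5 TPM, median-of-ratios scaling, protein-coding genes alone, no mitochondrially encoded genes, limma without trend and robust options, a replicate block, a correction for GC content and length, and each library left out.

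Promoter windows were RefSeq sequences of GRCh38.p14, searched for 6 short motifs on both strands. Genes were named in the text where they were catalytic, passed either rule, or had the highest or lowest fold change or the highest level of their part. Members of the related lists were named where they were called past the fold minimum, and POMP, NFE2L1, TAP1 and IRF1 throughout, and some genes of these lists are not reported here. The genes, their parts and the lists were chosen with earlier results of these data known. Other genes were named after their values were seen, among them PSMA5, PSMD1, PSMD2, the remaining 19S ATPases, PSME1 and PSME2, PSMF1, PSMG4, PSMD10 and list members past the adjusted p alone. Python 3.11.15 and matplotlib 3.10.9 drew the figures.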

Additional observations from a re-analysis of the deposited data

How the results depend on the processing

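The summed level of each part kept its negative sign under every alternative run on it, whereas PSMC1, PSMG3 and PSMB10 did not pass the adjusted p in all of them. The median log2 fold change of the standard 20S core (-0.09) was -0.12 with median-of-ratios scaling and -0.0575 without mitochondrially encoded genes, and that of activators and inhibitor (-0.14) was -0.163 and -0.102. For the summed levels the log2 fold of the 19S particle (-0.09) was -0.112 and -0.0493 under these settings, that of the assembly chaperones (-0.17) was -0.197 and -0.134, and that of all 48 genes (-0.10) was -0.0628 without mitochondrially encoded genes. Median-of-ratios scaling moved the median of all genes from 0.02 to -0.0031, and leaving out mitochondrially encoded genes moved it to 0.0536.

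Without the trend and robust options of limma, 0 proteasome genes were called by either rule, 1 list gene was higher, and 723 of all genes tested were called in place of 1272. Correcting for GC content and length, 6 proteasome genes were lower by adjusted p alone in place of 3, PSMB10 was no longer among them (-0.15, adjusted p = 0.268), and 1 list gene was lower past the fold minimum. Leaving out each library in turn gave 0 to 1 proteasome genes changed lower and 0 to 1 higher, 0 to 2 lower and 0 to 1 higher by adjusted p alone, and 0 to 1 list genes lower and 1 to 5 higher. Over the same fits 461 to 1041 of all genes tested were called, the median of the standard 20S core ran from -0.114 to -0.0636 and that of activators and inhibitor from -0.172 to -0.0512. PSMB10 also missed the adjusted p without the filter (adjusted p = 0.0547), without mitochondrially encoded genes (adjusted p = 0.0684) or with the block (adjusted p = 0.0671). The cause of these shifts was not tested.

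The labels give replicate numbers without saying what they mark. Deviations of same-numbered libraries from their group means correlated at -0.0053 over 14582 genes, so the numbers were not taken as pairs. With the replicate number as a block, 1 proteasome gene was changed lower and 3 were lower by adjusted p alone (PSMC1, PSMG3 and PSME3), and 1049 of all genes were called. A block with crossed numbers, added after seeing the data, gave 1 and 2. TPM holds no depth, so counting error for low genes such as PSMB9 is unknown.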

Other observations

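Noncoding relatives of the proteasome genes were in the table at low levels. Of 12 antisense RNAs and pseudogenes named after a member, 8 were tested and 0 had an adjusted p below 0.05, with PSMA3-AS1 the most abundant at 25.3 and 27.6 TPM in NC and at 31.3 and 28.6 TPM in the sh-ZNF217-labelled libraries (log2 fold change 0.17, limma adjusted p = 0.243). PSMB8-AS1 was at 1.84 and 2.37 TPM in NC and at 1.45 and 1.46 TPM in the sh-ZNF217-labelled libraries, lower in both (log2 fold change -0.33, adjusted p = 0.361).

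Of the 22 tested genes whose exons overlap those of a member, ACYP2, an acylphosphatase that shares 156 exonic bases with PSME4 on the opposite strand, was the only 1 with an adjusted p below 0.05. It was at 5.40 and 4.56 TPM in NC and at 10.1 and 9.93 TPM in the sh-ZNF217-labelled libraries, and rose (log2 fold change 0.88, limma adjusted p = 0.0175). PSME4 itself was at 34.1 and 37.3 TPM and at 44.2 and 39.4 TPM. EMC9, which shares 9 bases with PSME1, was at 11.3 and 9.96 TPM and at 6.83 and 8.16 TPM (log2 fold change -0.45, adjusted p = 0.0886).

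The promoter windows were also searched for other short motifs on both strands. TTCNNNGAA, the core of the gamma-interferon activation site, was in the windows of 7 of 42 proteasome genes (16.7%; 9.38% of all genes with a window), CACGTG, the E-box of MYC, in 4 (9.52%; 8.77%) and CCAAT in 21 (50%; 39.7%). The genes with TTCNNNGAA included PSMB5, PSMB8 and PSME3. The 7 members on chromosome 14, where PSMC1, PSMB5, PSME1 and PSME2 lie, had a median log2 fold change of -0.13, and the 8 members on chromosome 17 had one of -0.07.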
